A study of Mus musculus with 15 samples.

Results

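The Frizzled receptors are a family of 10 genes in the mouse, *Fzd1* to *Fzd10*, and all 10 were taken by symbol from the 56832 genes of the count table, whatever their values. Bulk RNA-sequencing was performed on cultured bone marrow mesenchymal stromal cells (MSCs) in 15 libraries. Of these, 7 were labelled wild type (TauT+/+, 4 male and 3 female) and 8 were labelled TauT-/- (4 male and 4 female). TauT is the taurine transporter encoded by *Slc6a6*, and the comparison asked how MSCs that lack it differ from controls. The TauT-/- mice lack the gene in all cells, both genotypes were on a C57BL/6J background and 16 weeks old, and no library carried a treatment or other allele in its labels. Marrow from femurs and tibiae was grown out and depleted of CD45+, Ter119+ and CD31+ cells, so the libraries represent adherent cells after culture rather than cells of intact bone. The sources used here do not tie a library to one animal or culture, so the p-values measure the spread between these libraries.

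Frizzled proteins cross the membrane 7 times and carry an extracellular cysteine-rich domain that binds Wnt ligands. With the co-receptors LRP5 or LRP6 they signal through Dishevelled to stabilize β-catenin, and with ROR, RYK and the Vangl and Prickle proteins they direct planar cell polarity and other β-catenin-independent responses. The E3 ligases ZNRF3 and RNF43 remove Frizzled from the cell surface, and R-spondins acting with LGR receptors oppose that removal. Wnt signaling is well known in the stromal lineage for favoring osteoblast over adipocyte fate. By sequence the receptors fall into subfamilies, of which *Fzd5* and *Fzd8* form one, *Fzd1*, *Fzd2* and *Fzd7* another, *Fzd4*, *Fzd9* and *Fzd10* the next, and *Fzd3* and *Fzd6* the last.

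The upstream sequences of 4 members are shown, *Fzd5*, *Fzd1* and *Fzd4* because their levels differed most between the genotypes among the well expressed members, and *Fzd7* as a well expressed member that did not pass the test. Each is the 200 bases from 250 to 51 before the RefSeq start of the gene, written 5′ to 3′ on the strand of the gene. Letters come from the RefSeq promoter table, which holds 6 of the 10 members (*Fzd1*, *Fzd4*, *Fzd5*, *Fzd7*, *Fzd9* and *Fzd10*), and each matched GRCm39 at 1 place only. Capitals mark matches, on either strand, to the TCF/LEF core CTTTGA, to the letters of the CCAAT box, to the GC box motif GGGCGG or to the TATA box motif TATAAA, with 0 overlaps between different motifs. The positions are chr1:64776960-64777159 on the minus strand for *Fzd5*, chr5:4808267-4808466 on the minus strand for *Fzd1*, chr7:89053324-89053523 on the plus strand for *Fzd4* and chr1:59521056-59521255 on the plus strand for *Fzd7*.
Fzd5: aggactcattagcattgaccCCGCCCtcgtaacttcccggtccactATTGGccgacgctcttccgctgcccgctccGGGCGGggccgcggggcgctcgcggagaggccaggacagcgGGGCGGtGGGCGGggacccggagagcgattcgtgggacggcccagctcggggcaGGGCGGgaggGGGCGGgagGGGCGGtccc
Fzd1: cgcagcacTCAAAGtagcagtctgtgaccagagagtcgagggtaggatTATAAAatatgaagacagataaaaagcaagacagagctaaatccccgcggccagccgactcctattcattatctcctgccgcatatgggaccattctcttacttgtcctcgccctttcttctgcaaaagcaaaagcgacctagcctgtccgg
Fzd4: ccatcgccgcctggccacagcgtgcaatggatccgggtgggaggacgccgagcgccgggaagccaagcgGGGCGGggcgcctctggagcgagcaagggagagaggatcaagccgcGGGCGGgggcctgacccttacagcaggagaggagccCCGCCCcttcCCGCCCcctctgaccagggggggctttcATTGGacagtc
Fzd7: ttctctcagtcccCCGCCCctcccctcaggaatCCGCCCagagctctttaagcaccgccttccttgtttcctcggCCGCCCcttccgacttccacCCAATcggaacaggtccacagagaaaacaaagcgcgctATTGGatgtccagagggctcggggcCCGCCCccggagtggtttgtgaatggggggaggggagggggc
The *Fzd5* sequence had 75.0% G and C with 7 GC boxes and 1 CCAAT box, and the *Fzd4* sequence had 71.5% with 4 GC boxes and 1 CCAAT box. The *Fzd7* sequence resembled both, at 63.5% with 4 GC boxes and 2 CCAAT boxes. *Fzd1* stood apart from the other promoters shown, with 49.0% G and C, 1 TCF/LEF core, 1 TATA box and no GC box. In the gene annotation *Fzd1* starts at 4808035, *Fzd5* at 64776934, *Fzd4* at 89053563 and *Fzd7* at 59521269. The *Fzd1* window lies farther from that start than the other windows do, so the windows are not at like places. Whether this bears on the contrast was not tested. Over 32851 promoters in the same window the median was 51.5% G and C, and 11.8% held a TCF/LEF core, 28.4% a CCAAT box, 24.6% a GC box and 9.14% a TATA box. These matches describe letters in a window, and the members that differed between genotypes do not share a motif that *Fzd7* lacks.

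Several properties of the libraries bear on what follows. Male-labelled libraries held 69764291 to 101575071 counts and female-labelled libraries 12761107 to 20781070, so labelled sex and depth cannot be told apart, and each genotype was sequenced at either depth. Values are given as CPM, counts scaled to library size by the TMM method, and SE is the standard error of a fit. *Slc6a6* itself had 592 to 2591 CPM in libraries labelled TauT+/+ and 401 to 1521 CPM in those labelled TauT-/-, and these ranges overlapped (log2 fold change -0.97 ± 0.36 SE, adjusted p = 0.125 by edgeR), so the genotypes below are those of the labels. Sex-linked genes went against the sex label in 3 libraries, TauT+/+ male 1, TauT-/- male 1 and TauT+/+ female 3. Of the 105 pairs of libraries, TauT+/+ male 1 with TauT+/+ female 1 and TauT-/- male 1 with TauT-/- female 1 were the closest. The spread of their log2 ratios over genes was 0.127 and 0.115, against 0.287 for the next pair, TauT+/+ male 3 with TauT-/- male 3. Results are also given with 1 library of each of the closest pairs. The 14 stromal markers, all of which passed the filter, summed to 34870 to 51750 CPM in TauT+/+ and 7410 to 48000 CPM in TauT-/- libraries. The 15 macrophage markers, none of which was at 0 in any library despite the CD45 depletion, summed to 1410 to 9639 CPM in TauT+/+ and 6678 to 20690 CPM in TauT-/- libraries. Endothelial markers summed to at most 19.0 CPM in TauT+/+ and 110 CPM in TauT-/- libraries, and erythroid markers to at most 0.115 CPM in any library.

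*Fzd5* and *Fzd1* fell in TauT-/- MSCs, and no Frizzled gene rose. Of the 10 members, 9 passed the filter on low counts and were tested, and 2 were called lower by edgeR's quasi-likelihood test at an adjusted p of 0.05, against a background of 0.75% of 17204 tested genes called lower. None was called higher, against 0.546% of all genes. At an unadjusted p of 0.05, 4 of the 9 (*Fzd5*, *Fzd1*, *Fzd4* and *Fzd8*) had p under the threshold with lower values in TauT-/- MSCs, against 13% of all genes. The fold change was below 0 for 9 of 9 tested members, with a median log2 fold change of -0.82, while 51.7% of all genes were below 0. DESeq2 on the same model called 3 of the members lower, adding *Fzd4*, against 6.31% of the 18045 genes it gave an adjusted p. For none of the 10 members were the libraries of the genotypes fully apart, against 1.13% of all tested genes.

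**Figure D1:**
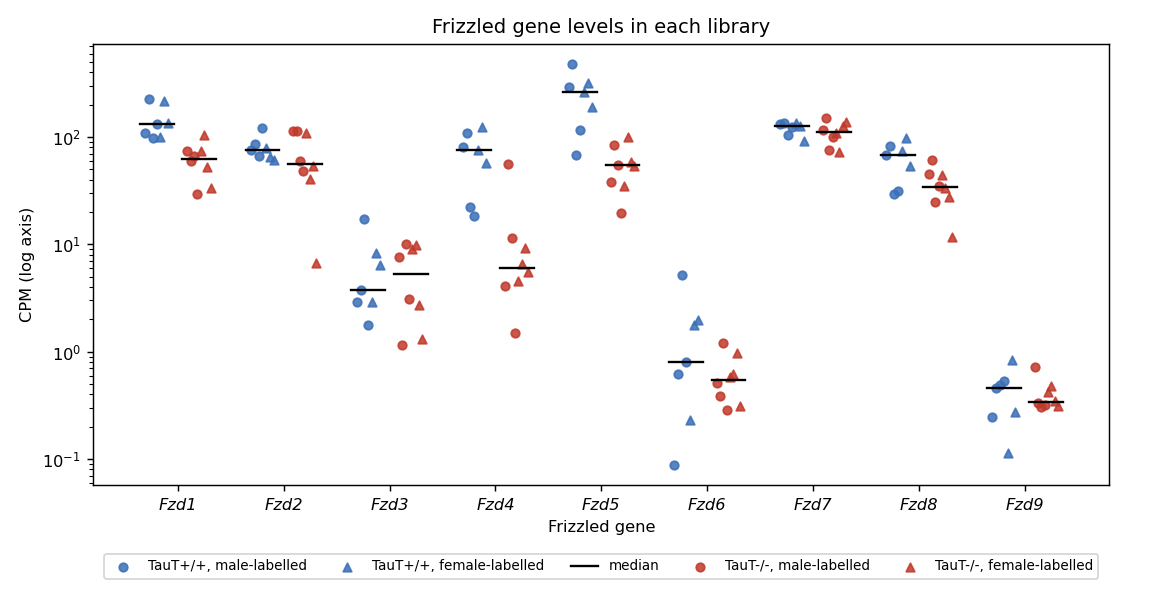
CPM on a log axis of the 9 tested Frizzled genes in each library, with circles for male-labelled and triangles for female-labelled libraries, TauT+/+ in blue and TauT-/- in red, and bars at the medians. The red points of *Fzd5*, *Fzd1* and *Fzd4* sit mostly under the blue ones, with 6, 7 and 7 of 8 TauT-/- libraries below the lowest TauT+/+ library, while those of *Fzd7* and *Fzd9* share one range.

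*Fzd5*, a receptor for Wnt5a and other ligands that can signal through β-catenin, was the most reduced member that passed the threshold. It lies on chromosome 1 of GRCm39 from 64769717 to 64776934 on the minus strand, with 2 exons of which 1 is coding. In male-labelled TauT+/+ libraries 1 to 4 *Fzd5* had 292, 479, 68.1 and 117 CPM, and in female-labelled TauT+/+ libraries 1 to 3 it had 264, 322 and 189 CPM. In male-labelled TauT-/- libraries 1 to 4 it had 38.3, 83.6, 55.2 and 19.8 CPM, and in female-labelled TauT-/- libraries 1 to 4 it had 34.7, 99.8, 58.8 and 53.8 CPM. All 8 TauT-/- libraries were below the TauT+/+ median, and the overlap came from the low TauT+/+ male 3 and from TauT-/- male 2 and female 2. TauT+/+ libraries averaged 247 ± 138 CPM (SD, n = 7) and TauT-/- libraries averaged 55.5 ± 26.1 CPM (SD, n = 8), a fitted 4.53-fold reduction (log2 fold change -2.18 ± 0.41 SE, adjusted p = 0.0293 by edgeR, DESeq2 adjusted p = 3.32e-05).

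The *Fzd5* difference stayed near the same size in subsets of the libraries, while its call did not hold in each. The log2 fold change was -2.28 in male-labelled libraries alone (edgeR adjusted p = 0.631) and -2.04 in female-labelled libraries alone (edgeR adjusted p = 0.195). In either of these fits 0 of all genes were called. Both subsets hold 1 library of each close pair, so they are not independent of one another. With 1 library of each close pair it was -2.07 when the female-labelled one was kept and -2.11 when the male-labelled one was kept, and the edgeR adjusted p was 0.0766 and 0.0974. Leaving out each library in turn gave -2.36 to -1.88. Of all genes, 48 to 779 were called lower in the fits that retained the *Fzd5* call and 4 to 24 in those that lost it. The call was retained in 8 of 15 such fits. It was lost without TauT+/+ male 2, TauT+/+ female 1, 2 or 3, and TauT-/- male 1, male 4 or female 3, with edgeR adjusted p of 0.0527, 0.0866, 0.0882, 0.0572, 0.0551, 0.056 and 0.0632.

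*Fzd8*, the closest relative of *Fzd5*, had the same order of genotypes with a smaller difference. It ranged from 29.4 CPM (median 68.2) to 97.2 CPM in TauT+/+ and from 11.7 CPM (median 34.2) to 61.7 CPM in TauT-/- libraries. TauT+/+ males 3 and 4, the lowest controls for *Fzd5*, were also the lowest controls for *Fzd8*, and 3 of 8 TauT-/- libraries were below them. The log2 fold change was -0.82 ± 0.33 SE (edgeR unadjusted p = 0.0257, adjusted p = 0.154, DESeq2 adjusted p = 0.0981), which did not pass the threshold.

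*Fzd4*, the receptor for norrin and a mediator of vascular development, had the largest fold change of the 9 tested members and the largest coefficient of variation among them in TauT-/- libraries (145%). It lies on chromosome 7 of GRCm39 from 89053563 to 89062342 on the plus strand, with 2 coding exons. In male-labelled TauT+/+ libraries 1 to 4 it had 81.1, 109, 22.4 and 18.3 CPM, and in female-labelled TauT+/+ libraries 1 to 3 it had 75.6, 124 and 57.4 CPM. In male-labelled TauT-/- libraries 1 to 4 it had 4.06, 56.2, 11.4 and 1.48 CPM, and in female-labelled TauT-/- libraries 1 to 4 it had 4.56, 6.53, 9.31 and 5.58 CPM. A single library, TauT-/- male 2, lay within the TauT+/+ range, and the other 7 were below the lowest control. The same library was the highest TauT-/- library for *Fzd8* and the second highest for *Fzd5*.

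The log2 fold change of *Fzd4* was -2.62 (standard error 0.71), a fitted 6.13-fold reduction that missed the edgeR threshold (adjusted p = 0.0692) and passed that of DESeq2 (adjusted p = 0.00264). Without TauT-/- male 2 it was -3.53 (edgeR adjusted p = 0.0182), and without TauT+/+ male 3 it was -2.85 (edgeR adjusted p = 0.035). In female-labelled libraries alone it was -3.70 (edgeR adjusted p = 0.0621) and in male-labelled libraries alone -1.65 (edgeR adjusted p = 0.658). The difference between the sex labels was -2.06 (standard error 1.28, edgeR unadjusted p = 0.129, adjusted p = 1), the largest of the family in size. Of the 9 members, 0 differed between the sex labels in their response by edgeR, 0 had an unadjusted p under 0.05 and 0 were called by DESeq2, against 0% of all genes called by edgeR.

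The other genes of the *Fzd4* subfamily were nearly silent. *Fzd9* had 2 to 59 counts per library, from 0.115 CPM (median 0.456) to 0.842 CPM in TauT+/+ and from 0.305 CPM (median 0.340) to 0.723 CPM in TauT-/- libraries, and its log2 fold change was -0.038 ± 0.36 SE, with an edgeR adjusted p of 0.962. *Fzd10* had 17 counts in all and did not pass the filter, with 0 counts in 4 TauT+/+ and 6 TauT-/- libraries. The highest *Fzd10* value was 11 counts, or 0.117 CPM, in TauT+/+ male 3. A count of 0 allowed up to 0.0305 CPM in the deepest and 0.229 CPM in the shallowest library, by a limit of 3 counts that covers counting error only. The difference of *Fzd10* was -0.052 on the log2(CPM + 0.5) scale, with a two-sided exact permutation p of 0.276 over 2450 splits within the sex labels, so no difference was detectable at this depth.

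*Fzd1*, a receptor active in β-catenin signaling, fell in TauT-/- MSCs within a subfamily whose other members did not pass the test. It is a gene of 1 exon on chromosome 5 of GRCm39 from 4803839 to 4808035 on the minus strand. In male-labelled TauT+/+ libraries 1 to 4 it had 109, 225, 97.5 and 131 CPM, and in female-labelled TauT+/+ libraries 1 to 3 it had 99.8, 216 and 135 CPM. In male-labelled TauT-/- libraries 1 to 4 it had 74.5, 59.2, 66.0 and 29.4 CPM, and in female-labelled TauT-/- libraries 1 to 4 it had 74.5, 105, 52.2 and 33.3 CPM. TauT-/- female 2 was the single library of its genotype above the lowest control. TauT+/+ libraries averaged 145 ± 53.7 CPM (SD, n = 7) and TauT-/- libraries averaged 61.7 ± 24.4 CPM (SD, n = 8), a fitted 2.37-fold reduction (log2 fold change -1.24 ± 0.28 SE, adjusted p = 0.0459 by edgeR, DESeq2 adjusted p = 0.0017).

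The *Fzd1* call lay close to the threshold. Leaving out each library gave log2 fold changes of -1.37 to -1.08 and edgeR adjusted p of 0.0219 to 0.118. The call was retained in 2 of 15 fits, those without TauT+/+ male 3 and without TauT-/- female 2. Of all genes, 779 and 77 were called lower in these 2 fits, and 4 to 163 in the others. With 1 library of each close pair *Fzd1* had a log2 fold change of -1.37 (edgeR adjusted p = 0.0771) or -1.34 (edgeR adjusted p = 0.102). In these 13-library edgeR fits 0 of 8 and 0 of 9 tested members were called lower, against 0% of all genes in either. An unadjusted p under 0.05 was found for 5 and 4 members, against 3271 of 14360 and 3640 of 17552 genes.

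*Fzd7* and *Fzd2*, the paralogs of *Fzd1*, did not pass the test. *Fzd7* ranged from 91.0 CPM (median 127) to 134 CPM in TauT+/+ and from 73.2 CPM (median 113) to 152 CPM in TauT-/- libraries, the least variable member in the controls, with a coefficient of variation of 13.9%. Its log2 fold change was -0.12 ± 0.16 SE, with an edgeR adjusted p of 0.681. *Fzd2* ranged from 60.6 CPM (median 76.2) to 122 CPM in TauT+/+ and from 6.73 CPM (median 56.7) to 115 CPM in TauT-/- libraries, with TauT-/- female 4 far below every other library, and its log2 fold change was -0.21 ± 0.39 SE, with an edgeR adjusted p of 0.775. For *Fzd2*, 5 of 8 TauT-/- libraries were below the lowest control. Its log2 fold change was -0.046 without TauT-/- female 4. With 1 library of each close pair it was -0.37 when the female-labelled one was kept and -0.36 when the male-labelled one was kept. Whether the response of *Fzd1* differed from that of *Fzd2* or *Fzd7* was not tested.

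*Fzd3* and *Fzd6*, receptors best known for planar cell polarity, were expressed at a low level. *Fzd3* ranged from 1.78 CPM (median 3.76) to 17.1 CPM in TauT+/+ and from 1.15 CPM (median 5.34) to 10.1 CPM in TauT-/- libraries (log2 fold change -0.14 ± 0.59 SE, adjusted p = 0.911 by edgeR). *Fzd6* ranged from 0.0874 CPM (median 0.807) to 5.20 CPM in TauT+/+ and from 0.284 CPM (median 0.546) to 1.20 CPM in TauT-/- libraries (log2 fold change -1.32 ± 0.68 SE, adjusted p = 0.255 by edgeR). The highest library for both was TauT+/+ male 3, without which the log2 fold change was 0.45 for *Fzd3* and -0.42 for *Fzd6*, so that the sign of the former and the size of the latter rested on that library.

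**Figure D2:**
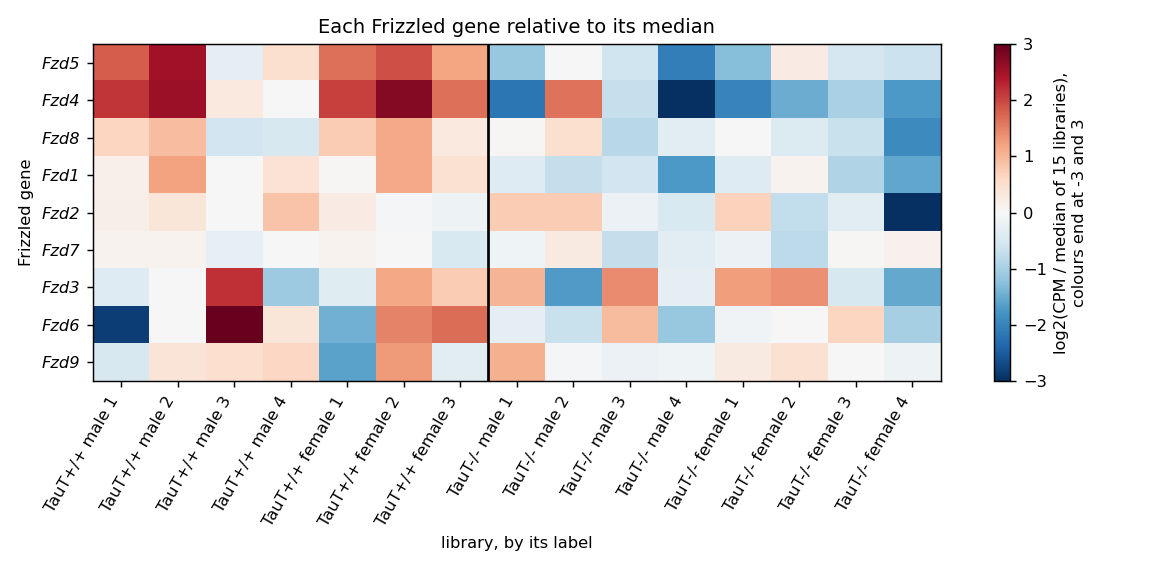
Colours give log2 of the CPM of each tested Frizzled gene (rows) in each library (columns) relative to its median over the 15 libraries, red above and blue below, with TauT+/+ libraries left of the black line. *Fzd5*, *Fzd4* and *Fzd8* are redder in the other 5 controls than in TauT+/+ males 3 and 4, and *Fzd3* and *Fzd6* are highest in TauT+/+ male 3.

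**Figure D3:**
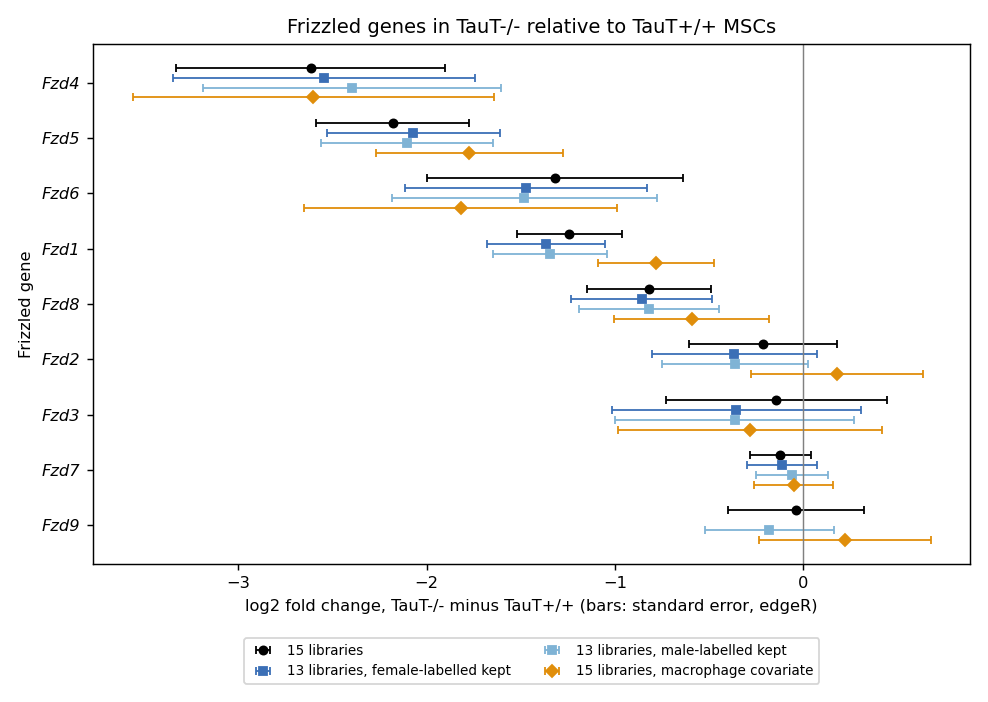
Points give the edgeR log2 fold change of each tested Frizzled gene, TauT-/- minus TauT+/+, with bars for the standard error, from 15 libraries, from 13 libraries with 1 of each close pair, and with the macrophage markers as a covariate. *Fzd4*, *Fzd5*, *Fzd6*, *Fzd1* and *Fzd8* lie below 0 in each fit shown, and *Fzd2* and *Fzd9* turn above 0 with the covariate. *Fzd9* did not pass the filter in the fit that kept the female-labelled libraries.

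Levels of different receptors were compared as CPM per kilobase of exon. In TauT+/+ MSCs *Fzd5* (35.6) and *Fzd1* (34.5) had the highest mean, followed by *Fzd2* (21.8), *Fzd7* (20.7), *Fzd8* (10.5) and *Fzd4* (10.2), then by *Fzd3* (0.467), *Fzd6* (0.223), *Fzd9* (0.185) and *Fzd10* (0.00781), all in CPM per kilobase. Among the 9 neighbours in that order, *Fzd7* exceeded *Fzd8*, *Fzd4* exceeded *Fzd3*, *Fzd3* exceeded *Fzd6* and *Fzd9* exceeded *Fzd10*, each in 7 of 7 libraries (two-sided exact sign-flip permutation test, p = 0.0156, the smallest that 7 libraries allow, adjusted p = 0.0352 over 9 pairs). The other 5 pairs of neighbours, *Fzd5* with *Fzd1* among them (exact permutation p = 0.703), did not differ beyond their spread. Per kilobase of coding sequence *Fzd5* had 141 and *Fzd1* 75.1 CPM, with *Fzd5* higher in 5 of 7 libraries (exact permutation p = 0.0625, adjusted p = 0.113). On that scale *Fzd7* came before *Fzd2* and *Fzd4* before *Fzd8*, and 3 pairs of neighbours differed.

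In TauT-/- MSCs the order was headed by *Fzd7* (19.0 CPM per kilobase), *Fzd2* (18.6) and *Fzd1* (14.7), and *Fzd5* came next, followed by *Fzd8* (5.93) and *Fzd4* (1.81). *Fzd1* exceeded *Fzd5* in 8 of 8 TauT-/- libraries and *Fzd8* exceeded *Fzd4* in 8 of 8 (exact permutation p = 0.00781, adjusted p = 0.0234), and in the controls *Fzd5* was the higher of its pair in 3 of 7 libraries and *Fzd8* in 4 of 7. The first of these results depended on the length used. Per kilobase of coding sequence, *Fzd1* (32.1 CPM) exceeded *Fzd5* (31.6 CPM) in 4 of 8 TauT-/- libraries (exact permutation p = 0.773), and *Fzd8* exceeded *Fzd4* in 7 of 8 (exact permutation p = 0.0156, adjusted p = 0.0469). The coding-length order in TauT-/- libraries was added after the data were seen. TauT-/- male 1 and female 1, a close pair, counted as separate libraries in these tests. The TauT-/- order was not tested with 1 of them left out. Whether the order itself differed between genotypes was not tested.

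Summed over the 10 members, Frizzled mRNA was 79.8 to 200 CPM per kilobase (median 130) in TauT+/+ and 43.9 to 102 CPM per kilobase (median 67.0) in TauT-/- libraries, and the 3 highest TauT-/- libraries lay within the TauT+/+ range. *Fzd5* made up 24.9% ± 8.24 (SD, n = 7) of that sum in TauT+/+ and 11.9% ± 5.39 (SD, n = 8) in TauT-/- libraries. *Fzd4* made up 7.11% ± 2.83 (SD, n = 7) and 2.27% ± 2.46 (SD, n = 8). *Fzd7* made up 16.3% ± 3.88 (SD, n = 7) and 29.4% ± 11.5 (SD, n = 8) without a change in its own level that passed the test, and reached 53.2% in TauT-/- female 4, where *Fzd2* was lowest. Per kilobase of coding sequence the share of *Fzd5* was 32.2% ± 9.44 (SD, n = 7) and 16.4% ± 6.92 (SD, n = 8). These sums and shares follow from the values above and were not tested.

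**Figure D4:**
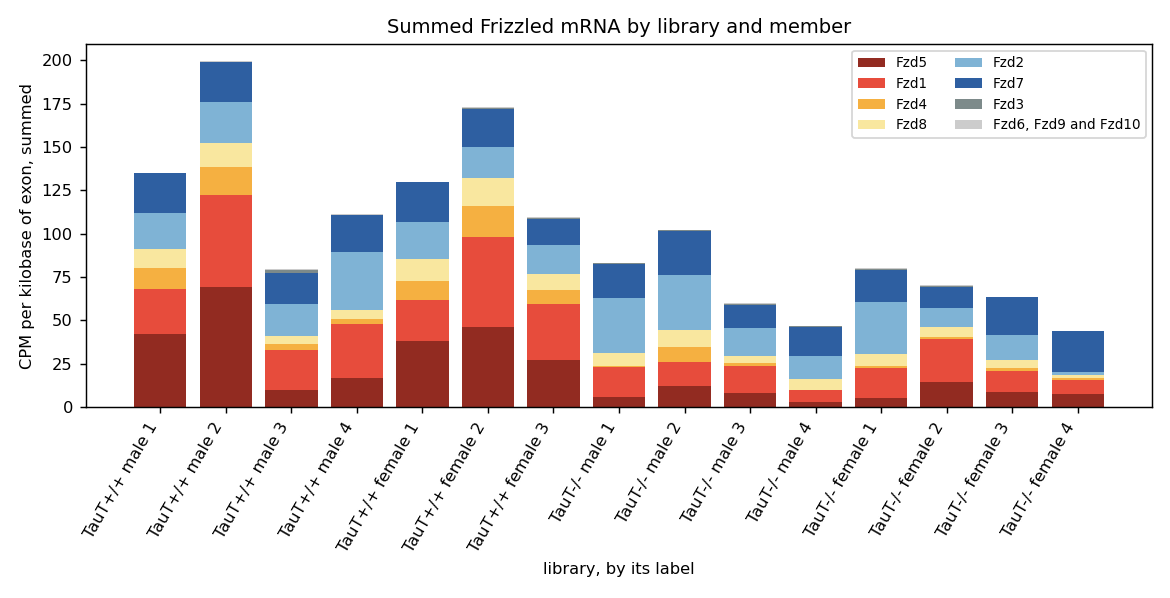
Bars give the summed CPM per kilobase of exon of the 10 Frizzled genes in each library, stacked by gene. The red and orange parts (*Fzd5*, *Fzd1* and *Fzd4*) are shorter in the 8 TauT-/- libraries than in most controls, while the dark blue part (*Fzd7*) keeps a similar height.

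Markers of other cell types also differed between the genotypes. All 15 macrophage markers had a log2 fold change above 0 (median 0.92), and 1 of them, *Cd68*, was called higher by edgeR (log2 fold change 1.46, adjusted p = 0.0445). DESeq2 called 7 of the 15 higher (*Fcgr1*, *Laptm5*, *C1qb*, *C1qa*, *Itgam*, *Cd68* and *Cd14*), against 952 of the 18045 genes it gave an adjusted p. Of 8 endothelial markers 5 were tested, 4 of them above 0, and *Kdr* was called higher by DESeq2 alone (log2 fold change 2.14, edgeR adjusted p = 0.0561, DESeq2 adjusted p = 0.000833). Of the 14 stromal markers 10 had a log2 fold change below 0 (median -0.46), and none was called by edgeR, with *Pdgfra* called lower by DESeq2 alone (log2 fold change -1.45, edgeR adjusted p = 0.108, DESeq2 adjusted p = 0.0342). In bulk RNA, fewer cells that express a receptor and less receptor mRNA per cell cannot be told apart.

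With the mean of the macrophage markers as a covariate, *Fzd5* had log2 fold change -1.77 ± 0.50 SE (edgeR unadjusted p = 0.00321, adjusted p = 0.284), *Fzd4* had -2.60 (edgeR adjusted p = 0.387) and *Fzd1* had -0.78 (edgeR adjusted p = 0.434). Without the covariate these log2 fold changes were -2.18, -2.62 and -1.24. With it *Fzd8* went from -0.82 to -0.59, *Fzd7* from -0.12 to -0.049 and *Fzd2* from -0.21 to 0.18. *Fzd9* went from -0.038 to 0.22, *Fzd3* from -0.14 to -0.28 and *Fzd6* from -1.32 to -1.82. In that fit none of the 17204 genes was called by edgeR (1722 had an unadjusted p under 0.05), and 4 of the 9 members had an unadjusted p under 0.05. TauT-/- male 1 and female 1, one of the close pairs, had macrophage sums of 6678 and 7254 CPM, below those of 5 of the 7 controls. Their stromal sums were 31990 and 30500 CPM, below every control. *Fzd5* was 38.3 and 34.7 CPM in these libraries, also below every control. TauT-/- male 3 had a stromal sum of 48000 CPM, above 5 of the 7 controls, and a macrophage sum of 16620 CPM, above every control. *Fzd5* was 55.2 CPM there. TauT+/+ male 2 had the lowest macrophage sum of any library, 1410 CPM, and the highest *Fzd5*, 479 CPM. TauT-/- male 4 had a stromal sum of 13760 CPM, below every control, and the lowest *Fzd5*, 19.8 CPM. TauT-/- female 4 had the lowest stromal sum, 7410 CPM, and the highest macrophage sum, 20690 CPM, with *Fzd5* at 53.8 CPM. Beyond these values, the part of the culture makeup in the Frizzled differences was not tested.

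**Figure D5:**
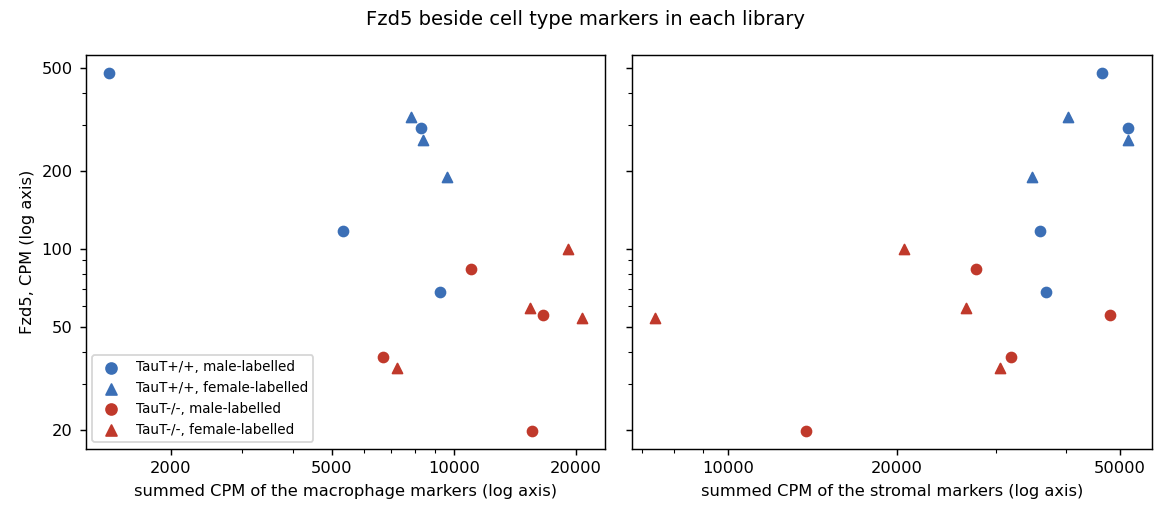
*Fzd5* CPM (vertical, log axis) is plotted for each library against the summed CPM of the 15 macrophage markers (left) and the 14 stromal markers (right), both on log axes. TauT+/+ libraries are blue and TauT-/- libraries red. TauT-/- male 1 and female 1, a close pair, have macrophage sums of 6678 and 7254 CPM, within the range of the controls. Their stromal sums of 31990 and 30500 CPM and their *Fzd5* values are below every control. TauT+/+ male 2 has the lowest macrophage sum, 1410 CPM, and the highest *Fzd5* value.

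The genes that act with Frizzled at the membrane were examined next. Of 10 co-receptors and partners, 8 had a log2 fold change below 0 (median -0.63), and *Lrp6*, which pairs with Frizzled in β-catenin signaling, was called lower by edgeR. *Lrp6* ranged from 127 CPM to 355 CPM in TauT+/+ and from 83.1 CPM to 138 CPM in TauT-/- libraries (log2 fold change -1.02 ± 0.22 SE, adjusted p = 0.04 by edgeR). Its paralog *Lrp5* had 135 ± 47.4 CPM (SD, n = 7) and 142 ± 54.4 CPM (SD, n = 8) (log2 fold change 0.082, edgeR adjusted p = 0.881). *Tspan12*, a tetraspanin that enhances norrin signaling through *Fzd4*, was called lower by DESeq2 alone (log2 fold change -1.48, edgeR adjusted p = 0.0816, DESeq2 adjusted p = 0.0162).

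The ligands and the turnover genes gave no edgeR call. Of 20 ligands (the Wnts and norrin) 10 were tested, with 5 below 0 and a median log2 fold change of 0.022, and *Wnt6* alone was called higher by DESeq2 (log2 fold change 2.06, edgeR adjusted p = 0.106, DESeq2 adjusted p = 0.0203). Of 9 turnover genes 7 were tested, and the ligase genes *Znrf3* (log2 fold change -0.026, edgeR adjusted p = 0.944) and *Rnf43* (1.94, edgeR adjusted p = 0.341, at most 2.23 CPM in any library) did not pass. *Lgr5*, an R-spondin receptor, was called higher by DESeq2 alone (log2 fold change 3.97, edgeR adjusted p = 0.121, DESeq2 adjusted p = 0.0101) and ranged from 0.0521 CPM to 295 CPM among TauT-/- libraries. Of the secreted Frizzled-related proteins, which bind Wnt outside the cell, 4 of 5 were tested and none was called by either tool (median log2 fold change -0.68).

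Below the receptor, *Nkd1*, a Dishevelled-binding inhibitor that is itself a Wnt target, fell from a TauT+/+ mean of 23.9 ± 21.2 CPM (SD, n = 7) to a TauT-/- mean of 2.39 ± 1.74 CPM (SD, n = 8) (log2 fold change -3.28 ± 0.75 SE, adjusted p = 0.0475 by edgeR). The other 11 genes of the relay, which include the Dishevelleds, *Gsk3b*, *Apc* and *Ctnnb1*, gave no edgeR call, and the median over the 12 was -0.073. Among them *Axin2*, at a TauT+/+ mean of 1.31 CPM, had a log2 fold change of -0.22 (edgeR adjusted p = 0.901). *Nkd2* had -0.495 (edgeR adjusted p = 0.358). *Axin1*, a scaffold of the β-catenin destruction complex, was called higher by DESeq2 alone (log2 fold change 0.31, edgeR adjusted p = 0.115, DESeq2 adjusted p = 0.0477). Among 7 planar polarity genes none was called by edgeR, and *Vangl1*, *Prickle1* and *Prickle2* were called lower by DESeq2 (log2 fold change -0.47, -1.25 and -1.10, edgeR adjusted p = 0.0597, 0.0891 and 0.1, DESeq2 adjusted p = 0.00847, 0.0206 and 0.0364). Of the 18045 genes with a DESeq2 adjusted p, 6.31% were called lower. As for the receptors, the edgeR calls of *Lrp6* and *Nkd1* were lost in both 13-library fits, in which 0 genes were called lower.

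The genes whose log2 CPM followed each called receptor most closely over the 15 libraries were ranked among 13199 genes with a mean of at least 1 CPM. For *Fzd5* they were *Kcne4*, a potassium channel subunit (Pearson r 0.951), *Boc*, a hedgehog co-receptor (0.943), and *St6galnac4*, a sialyltransferase (0.933). *Boc* was itself called lower (log2 fold change -1.47, edgeR adjusted p = 0.0483). For *Fzd1* they were *Cd59a*, a complement regulator (Pearson r 0.949), *Gli2*, a hedgehog transcription factor (0.926), and *Rbms3*, an RNA-binding protein (0.922). Within the genotypes r was 0.741 to 0.954 for the genes that followed *Fzd5*, and for *Gli2* with *Fzd1* it was 0.519 in TauT+/+ and 0.945 in TauT-/- libraries. These r values describe libraries that share genotype, labelled sex, depth and culture makeup.

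Some members share bases with other annotated genes, and how many reads fell on both was not tested. *AI314278*, on the same strand as *Fzd4*, shares 8780 bases of its locus and had 0 counts. *Gm38058*, on the strand opposite *Fzd5*, had 297 counts over all libraries against 113352 for *Fzd5*, and the other overlapping genes that the count table held had 0 to 4 counts.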

How the data were processed

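Per the labels and the study's methods, the authors amplified full-length cDNA primed by oligo-dT (SMART-Seq mRNA LP), filtered paired reads with fastp 0.23.1, mapped them with STAR 2.7.9a to GRCm39 with GENCODE M31, which the methods call the human reference, and assigned reads to genes with strand-aware featureCounts (Subread 2.0.1). Whether the kit keeps strand is not given in the sources used here. The deposited values are raw counts for 56832 genes. All 15 columns matched a sample, and 0 were left out.

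The main test used edgeR 4.0.16 in R 4.3.3 (TMM, filterByExpr, quasi-likelihood F test, sex label and genotype as terms, Benjamini-Hochberg over 17204 genes, threshold 0.05). The biological coefficient of variation was 0.482. The alternatives were DESeq2 1.42.0, limma 3.58.1 voom with sample quality weights, upper-quartile scaling, other filters, no sex term, a replicate block, a macrophage covariate and subsets of libraries. The fits were tested on simulated data. Levels per kilobase used the exon union of GENCODE M39 (same build, GRCm39, later release) or, as an alternative, the coding length, and a pseudocount of 0.01 CPM per kilobase. Likeness used log2(CPM + 0.5). Other statistics were computed in Python 3.11.15. The 10 members, the gene lists, the close pairs and the 3 libraries against the sex label were chosen with earlier results of these data known. The genes named are all 10 members, *Slc6a6*, list genes past the edgeR threshold, *Lrp5*, *Znrf3*, *Rnf43* and the 3 genes most alike to each called member. List genes called by DESeq2 alone, *Axin2* and *Nkd2* were named after their values were seen. Replicate numbers were not treated as pairs.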

Additional observations from a re-analysis of the deposited data

Results flagged for a closer look

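Within groups of 4 libraries, a member was flagged when the gap from its highest or lowest library to the next, divided by the range, passed Dixon's critical value at 95%. Of 29 groups tested 4 were flagged, where chance gives about 1.4. *Fzd3* (17.1 CPM against 3.76 CPM in the next library, ratio 0.871), *Fzd6* (5.20 against 0.807 CPM, ratio 0.859) and *Fzd10* (0.117 against 0.0146 CPM, ratio 0.876) were each high in TauT+/+ male 3. *Fzd9* was high in TauT-/- male 1 (0.723 against 0.333 CPM, ratio 0.933).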

How the results depend on the processing

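The number of Frizzled genes called lower was 2 by edgeR, against 129 of 17204 genes. It moved to 1 without the filter on low counts, against 42 of 33207 genes. It was 0 with the macrophage covariate and in male-labelled or female-labelled libraries alone. It was also 0 in either set of 13 libraries and in the 12 libraries left without those against the sex label. In each of these fits with 0, no gene at all was called lower. Leaving out each library gave 0 to 3, against 4 to 779 of all genes. DESeq2 and voom called 3, against 1139 and 708 of all genes, and 0 members were called higher in all 28 alternatives. With a replicate block 2 were called, *Fzd5* (adjusted p = 0.0392) and *Fzd4* (0.0436), with *Fzd1* at 0.0529, against 177 of all genes. Deviations of same-numbered libraries correlated at -0.0348 to 0.636, highest for male-labelled replicate 3. Libraries of different numbers were not compared in this way, so whether the numbers mark pairs was not tested. *Fzd1*, *Fzd4*, *Fzd5*, *Fzd6*, *Fzd7* and *Fzd8* had a log2 fold change below 0 in each alternative that tested them. *Fzd2* reversed with the macrophage covariate (0.18). *Fzd3* reversed with voom (0.078), the replicate block (0.054), and without TauT+/+ male 3 (0.45) or TauT-/- male 2 (0.033), over a range of -0.38 to 0.45 when each library was left out. *Fzd9* reversed with voom (0.0029), the replicate block (0.026), the covariate (0.22) and without any of 5 single libraries, over a range of -0.23 to 0.29 when each was left out. Of 9 neighbours in the TauT+/+ order 4 differed, and 0 did so without any one TauT+/+ library, since 6 libraries allow no exact p under 0.0312. The cause of these shifts was otherwise not tested. Depth limits *Fzd9* and *Fzd10*, whose counts per library were at most 59 and 11.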
